A study of Mus musculus with 24 samples.

Results

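The complement genes described are 8 genes that the kidney's own cells can transcribe, chosen by symbol: the components C3, C4a, C4b and Cfb, and the regulators Cd55, Cd59a, Cr1l and Serping1. They are 8 of the 56941 genes in the deposited table, and all 8 passed the filter on low counts that left 12780 genes for testing. Kidney RNA was measured by MACE (Massive Analysis of cDNA Ends), in which only the 3′ end of a polyadenylated transcript is read and the primers carry unique molecular identifiers. The mice were wildtype males of the C57BL/6J strain, 8 to 11 weeks old at surgery. In them the left anterior descending coronary artery was permanently ligated to cause a myocardial infarction (MI), or was not tied in a sham operation. Kidneys were taken 5d or 28d post-MI, and the sham kidneys, taken 5d after surgery, served as the control for both times. The comparisons therefore held no sham kidneys of the later time. Time since surgery, and age at collection with it, cannot be told apart from infarction at 28d post-MI. Values could be assigned to 22 of the 24 labelled kidneys, 8 from sham mice, 8 from 5d post-MI and 6 from 28d post-MI. Whole kidney was sequenced, so that fewer cells of a type and less RNA per cell cannot be told apart.

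Complement is a cascade of proteases and opsonins. Its classical and lectin arms are started by C1 or by mannose-binding lectin and cleave C4 and C2, its alternative arm needs factor B (Cfb) and factor D (Cfd), and all arms meet at C3, whose cleavage leads to the membrane attack complex. Most circulating complement comes from the liver, but tubular epithelium, resident macrophages, endothelium and adipocytes also transcribe components, and host cells carry regulators such as Cd55, Cr1l (Crry in the mouse) and Cd59a that stop the cascade on their own surface.

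Positions are those of GENCODE M21 on the GRCm38 build, since the deposited table gives identifiers without positions. C3 (ENSMUSG00000024164) lies on chromosome 17 from 57203970 to 57228136. C4b (ENSMUSG00000073418) at 34728380 to 34743882, C4a (ENSMUSG00000015451) at 34809092 to 34823464 and Cfb (ENSMUSG00000090231) at 34856374 to 34862518 lie close together on the same chromosome, in the major histocompatibility complex. On the same strand as Cfb, 85 bases away, lies C2, and the readthrough gene Gm20547 overlaps Cfb but had 0 counts. On the opposite strand Nelfe, with 1848 counts over the 22 kidneys, lies 1 base from Cfb, where the 3′ ends of both genes meet, and since the strand setting of the counting is not given, reads there cannot be told apart with certainty. Cd55 (ENSMUSG00000026399) and Cr1l (ENSMUSG00000016481) lie on chromosome 1 at 130439027 to 130462744 and 195097382 to 195131586, and Cd59a (ENSMUSG00000032679) and Serping1 (ENSMUSG00000023224) on chromosome 2 at 104095801 to 104115354 and 84765387 to 84775444. The antisense gene Gm16083 overlaps Cd55, and had 7 counts over the 22 kidneys.

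C4a and C4b are near copies, and their sequences are shown because the counts of both depend on telling them apart. Their longest transcripts, of 5371 bases for C4a and 5379 for C4b, were identical at 5160 aligned bases and differed at 207 bases, an identity of 96.1%. Of the 451 windows of 50 bases in the last 500 bases of C4b, the end that MACE reads, 172 (38.1%) were found whole in C4a. Over the last 500 aligned positions the transcripts showed 11 differences, with unaligned bases counted. The 106 bases of C4b after its stop codon lie beyond the stretch shown here. The last 240 coding bases of C4b and the aligned bases of C4a, from GENCODE M21, differed at the 2 bases in capitals.
C4b: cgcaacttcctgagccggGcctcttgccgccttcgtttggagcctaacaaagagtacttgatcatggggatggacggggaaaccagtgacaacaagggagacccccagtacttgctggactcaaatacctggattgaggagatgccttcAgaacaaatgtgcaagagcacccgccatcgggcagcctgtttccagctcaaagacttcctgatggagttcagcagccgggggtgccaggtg
C4a: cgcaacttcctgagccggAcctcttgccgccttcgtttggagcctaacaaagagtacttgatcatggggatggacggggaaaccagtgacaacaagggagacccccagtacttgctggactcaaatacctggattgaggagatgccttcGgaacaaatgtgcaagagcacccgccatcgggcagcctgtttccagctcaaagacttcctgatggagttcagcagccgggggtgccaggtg
The read length and the way in which reads matching both genes were counted are not given in the sources used here, so the split between C4a and C4b is uncertain, and their sum is given beside them.

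Total counts per kidney ranged from 2280618 to 3786275. The 8 markers of proximal tubule summed to at least 34135 CPM (counts scaled to the library total) in every kidney. Most of this sum was Kap, at 28486 CPM or more in every kidney, and Slc5a2 did not pass the count filter. Markers of adrenal cortex summed to 966 CPM in sham kidney 2, 719 in sham kidney 6 and 84.0 in kidney 5 of the 5d post-MI group, and to under 5 CPM in the other kidneys. Among the adrenal markers, Cyp11b2 was at 0 in every kidney. The values of C3, C4a and C4b against sham are given with and without these 3 kidneys.

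In sham kidneys the regulators Cd59a and Serping1 were the most abundant members, and the members formed 3 tiers. Levels are CPM scaled by TMM (trimmed mean of M values), and because MACE reads only transcript ends, they are not divided by transcript length. Cd59a led with 90.9 ± 14.8 CPM (SD, n = 8), followed by Serping1 with 74.4 ± 7.85 CPM, and the ranges of the pair overlapped. The next tier held Cr1l at 45.7 ± 1.89 CPM, C3 at 40.1 ± 9.17 CPM and Cfb at 34.1 ± 5.72 CPM, and within it neighbouring ranges overlapped. Cd55 at 12.8 ± 2.40 CPM, C4b at 9.48 ± 4.23 CPM and C4a at 5.09 ± 2.91 CPM formed the lowest tier. The ranges of Serping1 and Cr1l, and those of Cfb and Cd55, did not overlap.

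The members differed in how much they varied between kidneys of a group, measured by edgeR's biological coefficient of variation, the spread left after counting error. Cr1l was the steadiest at 7.21%, and 10.01% of the tested genes had a lower value. Cd59a (10.8%), Cfb (11.3%), Serping1 (12.7%) and Cd55 (14.6%) lay in the middle. C3 varied by 18.3%, C4b by 23.5% and C4a by 33.1%, and 89.7%, 95.5% and 98.2% of the tested genes had a lower value than these 3.

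**Figure D1:**
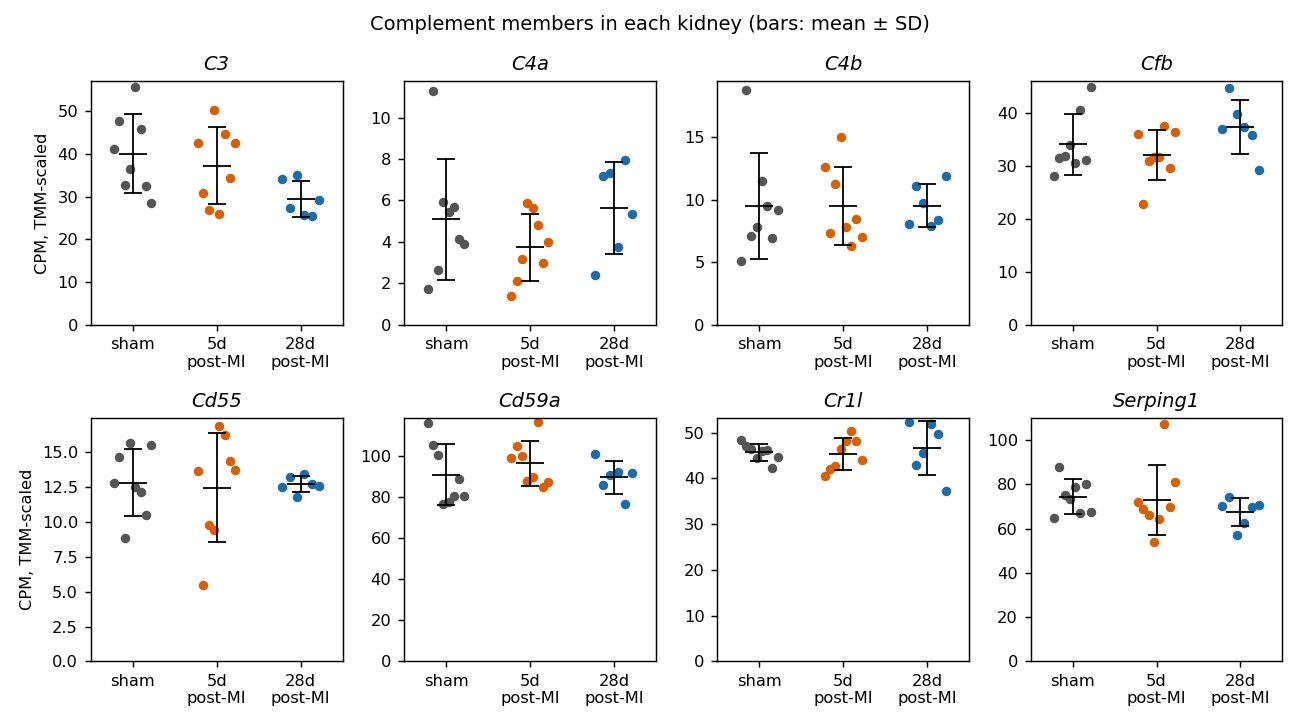
TMM-scaled CPM of the 8 members (panels) in each kidney (points) of the sham, 5d post-MI and 28d post-MI groups, with the mean and SD as black bars; every axis starts at 0. The groups overlap in every panel, C3 is lowest at 28d post-MI (25.4 to 35.0 CPM), and sham kidney 2 stands above the other sham kidneys for C4a and C4b.

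None of the 8 members was called in any of the 3 comparisons, those of each time with sham and that of the later with the earlier time (edgeR's quasi-likelihood F test, Benjamini-Hochberg adjusted p under 0.05 over 12780 genes). In the same fits 9 genes (0.0704% of those tested), 3 genes (0.0235%) and 53 genes (0.415%) were called. At an unadjusted p under 0.05, 0, 1 and 1 members passed, against 7.90%, 8.68% and 9.05% of all tested genes, and the passing member was C3 both times. Calls by DESeq2 and by limma's voom also held 0 of the 8 members in each comparison, where DESeq2 gave no adjusted p for C4a between the times. For none of the members did the groups separate completely, where 0.0548%, 0.258% and 0.344% of the tested genes did.

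The median log2 fold change over the members was -0.05 at 5d post-MI, 0.01 at 28d post-MI and 0.03 between the times, and the medians over all tested genes were 0.00018, -0.0012 and -0.0046. At 5d post-MI 2 members were higher than in sham and 6 lower by the sign of the estimate, and at 28d post-MI 4 were higher and 4 lower. The median size of the change, without its sign, was 0.08 for the members and 0.08 for all tested genes at 5d post-MI, and 0.08 and 0.09 at 28d post-MI.

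**Figure D2:**
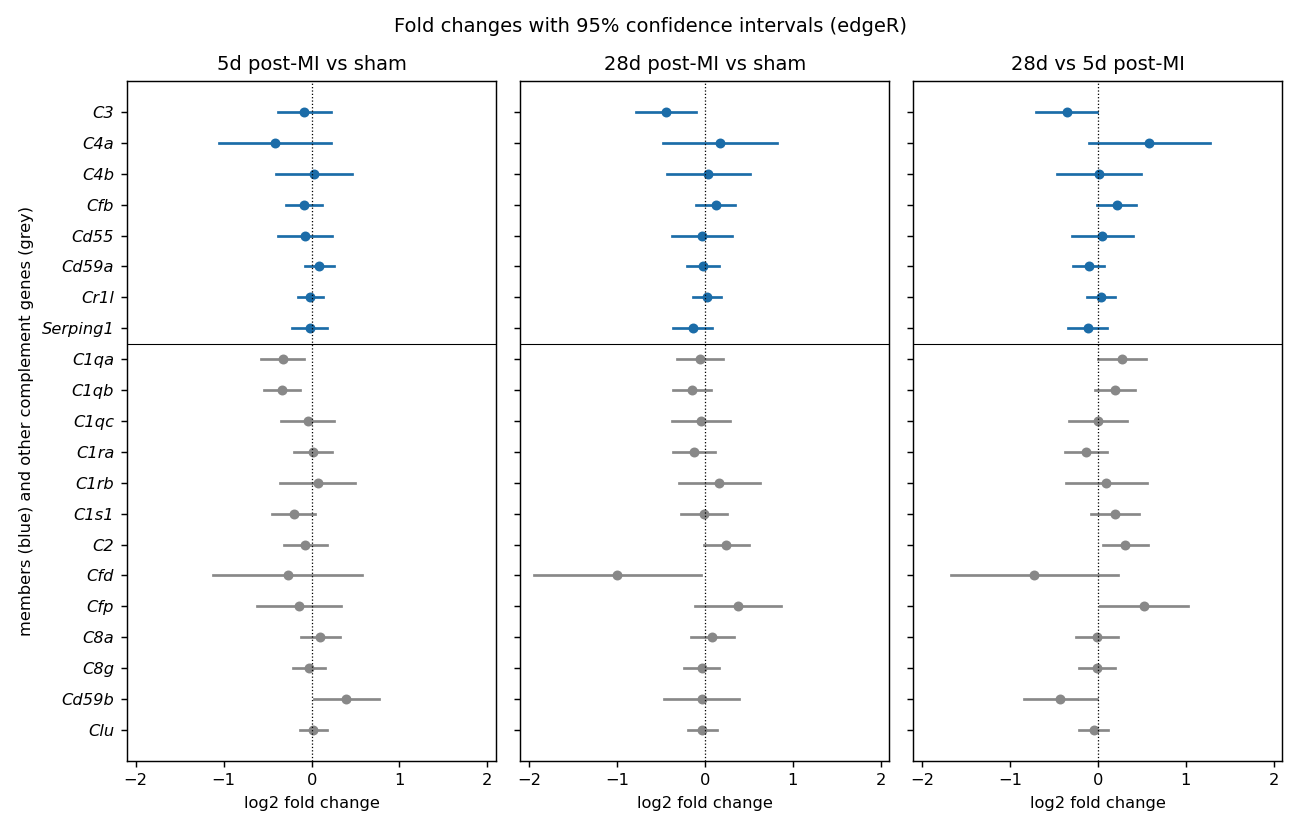
Log2 fold change (point) and 95% confidence interval (line) of the 8 members (blue) and of other tested complement genes (grey) in the 3 comparisons, from edgeR. The interval of C3 lies below 0 at 28d post-MI (-0.78 to -0.10), and the widest intervals are those of Cfd and C4a.

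C3 is the component on which all arms of the cascade converge. Its level in sham kidneys was 28.6 CPM at the lowest, 38.7 at the median and 55.5 at the highest, from 74 to 164 counts. At 5d post-MI the kidneys ran from 26.0 over a median of 38.4 to 50.2 CPM, and at 28d post-MI from 25.4 over 28.2 to 35.0 CPM. At 28d post-MI 3 of 6 kidneys lay below every sham kidney and the other 3 in the lower part of the sham range, so that the groups overlapped.

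The mean of C3 was 40.1 CPM in sham, 37.2 at 5d and 29.5 at 28d post-MI. Against sham, C3 had a log2 fold change of -0.44 at 28d post-MI (SE 0.16, 95% interval -0.78 to -0.10), a level 0.738 times that of sham, with an unadjusted p of 0.014 and an adjusted p of 0.444 in edgeR. The log2 fold change at 5d post-MI was -0.08 (-0.38 to 0.22), and that of 28d against 5d post-MI was -0.35 (SE 0.17, -0.70 to -0.01; edgeR's adjusted p = 0.535). C3 was therefore not called at either time, and over the alternatives tried its adjusted p at 28d post-MI lay between 0.121 and 0.817. Leaving out 1 kidney at a time kept its log2 fold change at 28d post-MI between -0.50 and -0.36, and without the 3 kidneys with adrenal markers its log2 fold changes were -0.08 at 5d and -0.36 at 28d post-MI.

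Adipocyte transcripts moved with C3. The 8 adipocyte markers (Adipoq, Plin1, Cidec, Lep, Retn, Fabp4, Pparg and Plin4, of which Lep did not pass the count filter) summed to 314 to 1461 CPM in sham kidneys, 142 to 1032 CPM at 5d post-MI and 283 to 708 CPM at 28d post-MI. All 7 tested markers had a lower estimate than in sham at both times, with median log2 fold changes of -0.60 and -0.84, and none was called. Fat around or within the sampled tissue was not recorded in the labels.

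Within groups, C3 followed the adipocyte score, the mean log2 CPM of these markers. After centring on group means, Pearson's r over the 22 kidneys was 0.82 and Spearman's rho 0.81. The permutation p, from 100000 shuffles of kidneys within groups, was 1e-05 for r, the smallest these shuffles can give, and 0.00045 after Benjamini-Hochberg adjustment over 90 correlations of a gene with a marker list; for rho they were 4e-05 and 0.0018. Without the 2 kidneys farthest from the median score r was 0.76, and within sham, 5d and 28d post-MI kidneys it was 0.81, 0.89 and 0.60. Of the 80 correlations of a member with a list, this was the one that passed the adjusted threshold.

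With the adipocyte score as a covariate in the edgeR fit, the log2 fold change of C3 at 28d post-MI was -0.15 (-0.37 to 0.06, adjusted p = 0.817), that at 5d post-MI was 0.16 (-0.03 to 0.35, adjusted p = 0.851), and that between the times was -0.32 (-0.52 to -0.11, unadjusted p = 0.0029, adjusted p = 0.197). The 28d estimate was thus smaller than without the covariate, the 5d estimate changed sign, and neither was called.

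**Figure D3:**
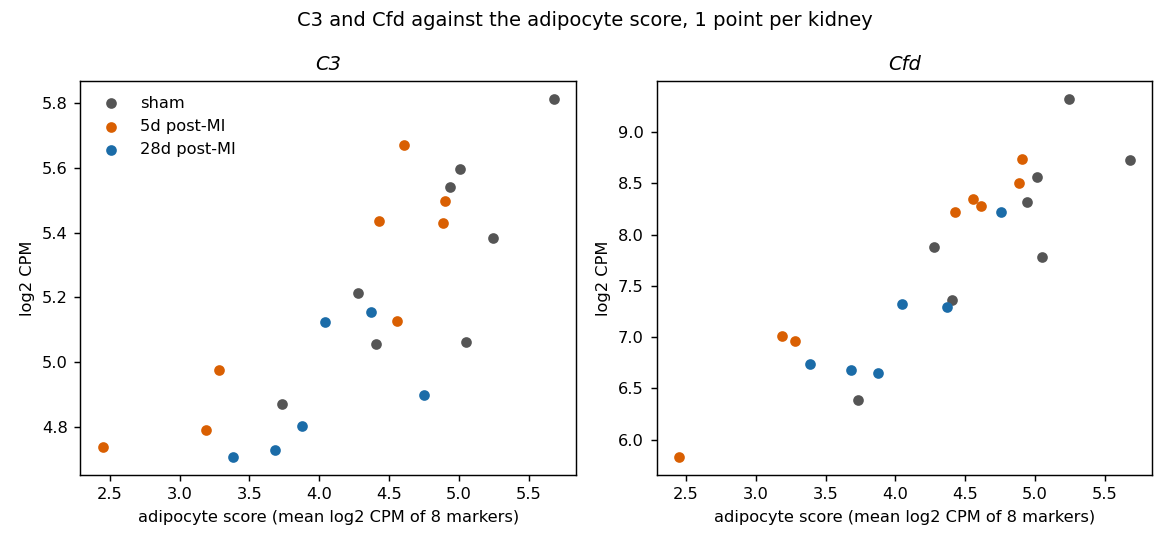
Log2 CPM (vertical axes) of C3 (left) and Cfd (right) against the adipocyte score, the mean log2 CPM of 8 markers (horizontal axes), with 1 point per kidney coloured by group. Both genes rise along the score in all groups, and the correlation within groups is 0.82 for C3 and 0.93 for Cfd.

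The 3 tested genes whose pattern over the 22 kidneys was most like that of C3, by the same centred r, were Scd1 (0.84), a fatty acid desaturase, Prkar2b (0.83), a regulatory subunit of protein kinase A, and Fabp4 (0.83), an adipocyte fatty acid carrier that is also in the marker list. Without the 2 kidneys farthest from the median of C3 they were 0.80, 0.84 and 0.82. These values are a description of likeness and carry no test.

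The promoter of C3 is shown as the sequence behind the member with the largest difference at 28d post-MI. RefSeq's promoter table (GRCm38.p6) holds 4 of the members, C3, Cd55, Cd59a and Cr1l. The 300 bases around the annotated start of C3, from 250 before to 50 after it, are at chr17:57228087-57228386 on the minus strand. Capitals mark a match to the C/EBP palindrome TTGCGNAA, starting 45 bases before the start site, and a match to TATAAA, starting at base 15 after it.
C3 promoter: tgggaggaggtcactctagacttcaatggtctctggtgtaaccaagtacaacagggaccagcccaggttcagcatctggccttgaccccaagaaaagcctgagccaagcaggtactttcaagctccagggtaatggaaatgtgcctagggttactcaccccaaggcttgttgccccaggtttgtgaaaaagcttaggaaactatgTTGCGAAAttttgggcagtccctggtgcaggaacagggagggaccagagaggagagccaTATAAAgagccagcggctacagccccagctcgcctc
Searched on both strands, TTGCGNAA was held by 262 of the 32851 promoters in the table (0.798%) and TATAAA by 4473 (13.6%). The pair of matches did not overlap, and neither motif was found in the windows of Cd55, Cd59a and Cr1l. A match describes letters and not a used site.

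C4, the substrate of the classical and lectin arms, was read from C4b, which encodes it, and from C4a, its near copy, which RefSeq lists as a transcribed pseudogene. C4b was at 5.10, 8.49 and 18.8 CPM (lowest, median and highest) in sham kidneys, at 6.32, 8.13 and 15.0 CPM at 5d post-MI and at 7.85, 9.05 and 11.9 CPM at 28d post-MI. The 3 means were 9.48, 9.46 and 9.50 CPM, and all groups overlapped.

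Log2 fold changes of C4b were 0.03 (-0.40 to 0.46) at 5d and 0.04 (-0.43 to 0.52) at 28d post-MI, so that the interval at 28d still allows a level from 0.740 to 1.43 times that of sham. C4a had 4 to 30 counts per kidney, and its means were 5.09 CPM in sham, 3.74 at 5d and 5.65 at 28d post-MI. Its log2 fold changes were -0.41 (-1.05 to 0.23) at 5d post-MI, 0.17 (-0.48 to 0.82) at 28d post-MI and 0.58 (-0.10 to 1.27) between the times, with adjusted p of 0.807, 0.933 and 0.649 in edgeR. At 28d post-MI 3 of 6 kidneys lay above every 5d kidney for C4a, and the groups overlapped.

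The share of C4a in the counts of both genes ran from 10% (exact 95% interval 2.79 to 23.7%, 4 of 40 counts) in 5d kidney 1 to 48.8% (32.9 to 64.9%, 20 of 41 counts) in 28d kidney 6. These intervals cover counting error only. The summed level was 14.6 CPM in sham, 13.2 at 5d and 15.2 at 28d post-MI, and its log2 fold changes were -0.11 (-0.59 to 0.36), 0.09 (-0.43 to 0.60) and, between the times, 0.20 (-0.32 to 0.72), with adjusted p of 0.948, 0.965 and 0.887 in edgeR.

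The highest sums of C4a and C4b were 30.1 CPM in sham kidney 2 and 20.9 CPM in 5d kidney 5, which are also kidneys with adrenal markers over 50 CPM. Sham kidney 6, with 719 CPM of those markers, had a sum of 15.2 CPM. Without the 3 kidneys the log2 fold change of C4a was -0.23 at 5d and 0.49 at 28d post-MI, and its adjusted p in edgeR was 0.944 and 0.796. That of C4b was 0.13 and 0.28, with adjusted p of 0.957 and 0.847. The sum without them had log2 fold changes of 0.02 (-0.33 to 0.36) at 5d, 0.35 (0.0054 to 0.70) at 28d post-MI and 0.34 (-0.0041 to 0.68) between the times, with unadjusted p of 0.923, 0.0467 and 0.0527 and adjusted p of 0.999, 0.706 and 0.593 in edgeR, so that its estimate at 28d was larger than with them and was not called. The part of adrenal tissue in these levels was not tested.

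**Figure D4:**
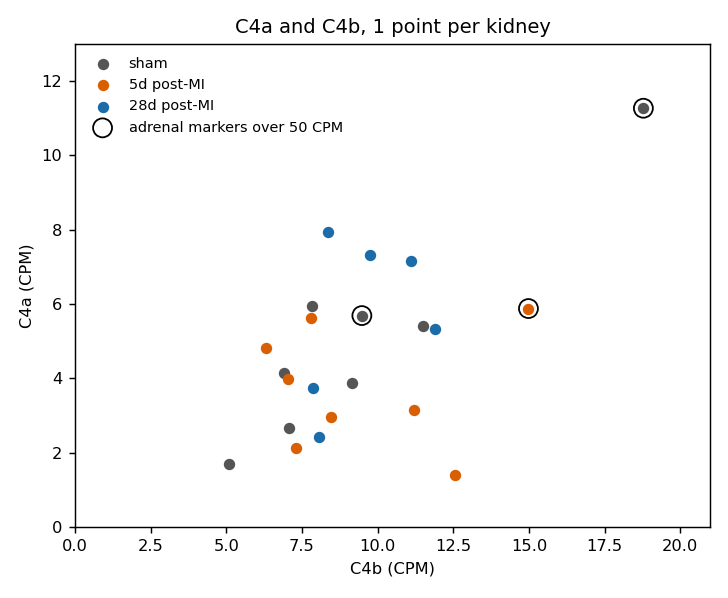
C4a (vertical axis) against C4b (horizontal axis) in TMM-scaled CPM, with 1 point per kidney coloured by group and circles around the 3 kidneys whose adrenal cortex markers sum to over 50 CPM. Sham kidney 2 lies at the upper right with 18.8 CPM of C4b and 11.3 CPM of C4a.

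The genes most like C4b over the kidneys were Mkks (r = 0.71), E430021H15Rik (0.70) and Gm3272 (0.69), and those most like C4a were Rpe (0.73), Penk (0.72) and Tubb4b (0.69). Without the 2 kidneys farthest from the member's median, r was 0.51, 0.70 and 0.70 for C4b and 0.61, 0.73 and 0.67 for C4a. Neither gene was among the 3 most like the other.

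Cfb encodes factor B, the protease of the alternative C3 convertase. It was at 28.1, 31.7 and 44.9 CPM (lowest, median, highest) in sham kidneys, at 22.9, 31.7 and 37.6 CPM at 5d post-MI and at 29.2, 37.2 and 44.8 CPM at 28d post-MI. No 28d kidney lay outside the sham range. The log2 fold changes were -0.09 (-0.29 to 0.12) at 5d, 0.13 (-0.09 to 0.35) at 28d post-MI and 0.21 (SE 0.11, -0.01 to 0.44) between the times, with adjusted p of 0.896, 0.812 and 0.588 in edgeR.

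Genes most like Cfb were Fmo5 (0.75), a flavin monooxygenase, Cyp4b1 (0.75), a cytochrome P450, and Aifm1 (0.74), a mitochondrial flavoprotein. Without the 2 kidneys farthest from its median, Cfb had 0.59, 0.65 and 0.56 with these genes. Its r with the macrophage score was 0.49 (permutation p = 0.03, adjusted over 90 p = 0.35), and 0.27 without the 2 kidneys farthest from the median score.

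Cd55 encodes decay-accelerating factor, which takes C3 convertases apart on the cell surface. Its kidneys ran from 8.84 to 15.6 CPM in sham, from 5.49 to 16.9 CPM at 5d post-MI and from 11.8 to 13.5 CPM at 28d post-MI. The 5d group was thus the widest, with 2 kidneys above and 1 below every sham kidney, and the 28d group lay inside the sham range. Log2 fold changes were -0.07 (-0.39 to 0.24) and -0.03 (-0.37 to 0.32) against sham at 5d and 28d post-MI, with adjusted p of 0.948 and 0.991 in edgeR. Kidney 2 of the 5d group held the low value of 5.49 CPM, from 18 counts, and without it the log2 fold change at that time was 0.04.

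The genes most like Cd55 were Gm6300 (0.86), Slc7a13 (0.84), an amino acid transporter of the proximal tubule, and Scarb2 (0.82), a lysosomal membrane protein. Without the 2 kidneys farthest from the median of centred Cd55 these values were 0.62, 0.60 and 0.62.

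Cr1l encodes Crry, a cofactor for the cleavage of C3b and C4b that rodents carry on most cells. Its levels were 42.2 to 48.5 CPM in sham, 40.5 to 50.3 CPM at 5d post-MI and 37.3 to 52.3 CPM at 28d post-MI. At 28d post-MI 3 of 6 kidneys lay above every sham kidney and 1 below, around nearly the same mean. The means were 45.7, 45.3 and 46.6 CPM, and the log2 fold changes -0.01 (-0.16 to 0.13) and 0.03 (-0.13 to 0.18). The intervals bound the level at 5d post-MI to between 0.897 and 1.10 times that of sham and at 28d post-MI to between 0.913 and 1.14 times, the narrowest bounds among the members. Pdpn (0.77), Spag7 (0.75) and Hnrnpa3 (0.75) were the genes most like it, with 0.74, 0.64 and 0.58 without the 2 kidneys farthest from its median.

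Cd59a encodes the inhibitor that blocks assembly of the membrane attack complex. It was at 76.9, 84.9 and 116 CPM (lowest, median, highest) in sham kidneys, 85.1, 94.6 and 117 CPM at 5d post-MI and 76.7, 91.5 and 101 CPM at 28d post-MI. The groups overlapped, although the lowest 5d kidney, at 85.1 CPM, lay just above the sham median of 84.9 CPM. The log2 fold changes were 0.09 (-0.08 to 0.26) and -0.02 (-0.20 to 0.17), with adjusted p of 0.854 and 0.989 in edgeR.

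Over the kidneys Cd59a was most like Rabac1 (0.78), Twsg1 (0.78) and Apela (0.76). Without the 2 kidneys farthest from its median, Cd59a had 0.79, 0.64 and 0.79 with these genes. Its r with the score of thick ascending limb markers (Umod, Slc12a1, Kcnj1 and Cldn16) was 0.59, with 0.61, 0.59 and 0.57 within sham, 5d and 28d post-MI kidneys. Its rho was 0.55 and its permutation p 0.0055, which was 0.12 after adjustment over 90, so that it did not pass. With the collecting duct score Cd59a had an r of 0.50 (permutation p = 0.015, adjusted over 90 p = 0.26), which did not pass either. Cd59b, the neighbouring copy of Cd59a on chromosome 2, was far lower at 5.12 CPM in sham, and reads shared by the copies could have been split between them.

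Serping1 encodes the C1 inhibitor, a secreted serpin that blocks C1r, C1s and the MASP proteases. It was at 64.9, 74.4 and 87.9 CPM in sham kidneys (lowest, median, highest), at 53.8, 69.4 and 107 CPM at 5d post-MI and at 56.9, 70.2 and 74.1 CPM at 28d post-MI. At 5d post-MI 1 kidney lay above and 2 below every sham kidney, and at 28d post-MI 2 of 6 lay below. Its log2 fold changes were -0.02 (-0.23 to 0.18) and -0.14 (-0.36 to 0.09), with adjusted p of 0.976 and 0.791 in edgeR. Tmsb4x (0.85), an actin-binding peptide, Map4k5 (0.84) and Uchl1 (0.82) were most like it. Without the 2 kidneys farthest from the median of Serping1 these values were 0.70, 0.77 and 0.67.

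Whether the members varied together was asked of each pair. Of the 28 pairs of members, 0 had a correlation across kidneys with an adjusted p under 0.05, and 2 had an unadjusted permutation p under 0.05. These were Cfb with Cd55 (r = 0.55, rho = 0.38, permutation p = 0.014 and 0.091, adjusted over the 28 pairs p = 0.38 and 0.87) and C4a with C4b (r = 0.48, rho = 0.37, permutation p = 0.04 and 0.11, adjusted p = 0.56 and 0.87). Without the 2 kidneys farthest from the median r was 0.26 for the first pair and 0.13 for the second.

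**Figure D5:**
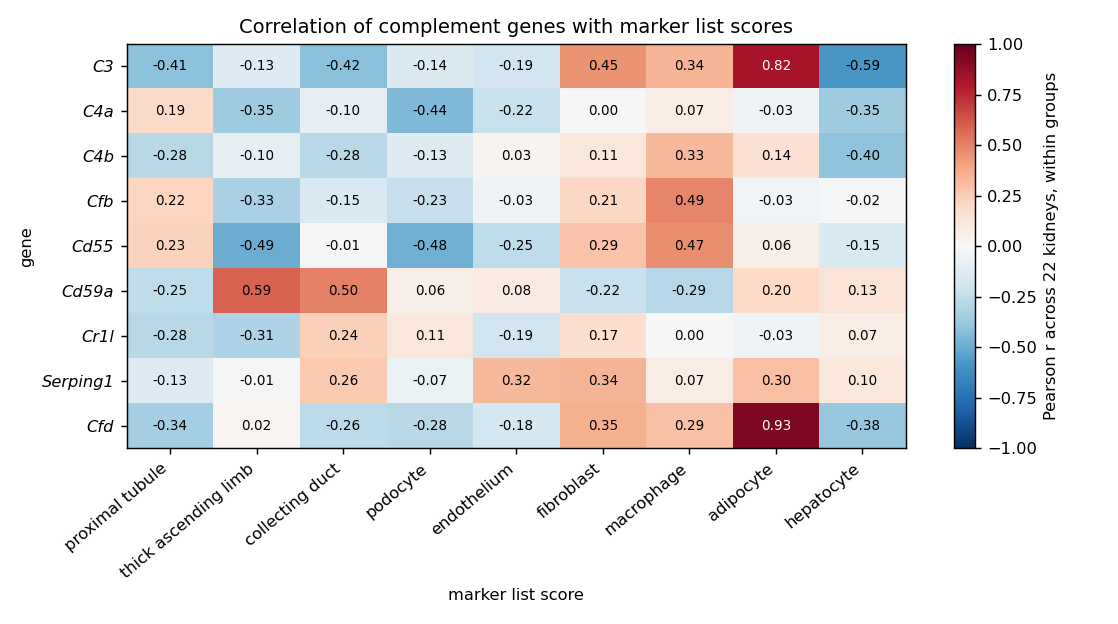
Pearson's r across the 22 kidneys, centred on group means, of the 8 members and Cfd (rows) with the scores of marker lists (columns), on a colour scale from -1 (blue) to 1 (red). The cells for the adipocyte score are 0.82 in the C3 row and 0.93 in the Cfd row, and those of the other members with this score lie between -0.03 and 0.30.

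Among the other correlations of members with lists, the one with the lowest permutation p was that of C3 with hepatocyte markers (r = -0.59, rho = -0.60, permutation p = 0.0035, adjusted over 90 p = 0.11). The hepatocyte list (Alb, Apoa2, Ttr, Serpina1a, Fgb and Ahsg) summed to medians of 649, 630 and 633 CPM in sham, 5d and 28d post-MI kidneys. Most of this sum was Ttr, with a mean of 612 CPM in sham, followed by Serpina1a with 56.0 CPM. Apoa2 and Alb had 4.91 and 3.63 CPM in sham, and Fgb and Ahsg did not pass the count filter, so the sum is not a measure of hepatocyte RNA. The adrenal list was left out of the correlations, since 3 kidneys stood apart from the rest in it.

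The rest of the pathway was taken from a list of 41 other complement genes, of which 14 passed the count filter. None of the 14 was called in any comparison, against 0.0704%, 0.0235% and 0.415% of all tested genes. In edgeR 3, 1 and 4 of the 14 had an unadjusted p under 0.05, against 7.90%, 8.68% and 9.05% of all tested genes. The share among the 14 was thus larger at 5d post-MI and between the times and smaller at 28d post-MI, which was not tested. Their median log2 fold changes were -0.06 at 5d post-MI, -0.03 at 28d post-MI and 0.04 between the times. None of the 8 receptors on the list (C3ar1, C5ar1, C5ar2, Cr2, Itgam, Itgax, Itgb2 and Vsig4) passed the filter.

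Of the genes that start the cascade, 7 of 16 were tested: C1qa, C1qb and C1qc, the chains of the recognition molecule C1q, the proteases C1ra, C1rb and C1s1, and C2. C1s2, Masp1, Masp2, Mbl1, Mbl2, Fcna, Fcnb, Colec10 and Colec11 did not pass the filter. C1qb was at 17.0, 21.1 and 24.4 CPM in sham kidneys (lowest, median, highest), 13.9, 16.6 and 17.5 CPM at 5d post-MI and 14.6, 18.2 and 23.0 CPM at 28d post-MI. At 5d post-MI 4 of 8 kidneys lay lower than any sham kidney.

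For C1qb the log2 fold change at 5d was -0.34 (SE 0.10, -0.55 to -0.14, unadjusted p = 0.0017), and its adjusted p of 0.307 in edgeR was the lowest of the complement genes in that comparison. C1qa had -0.33 (SE 0.12, -0.57 to -0.08) with an adjusted p of 0.458 in edgeR, and C1qc had -0.05 (-0.34 to 0.25). At the later time the log2 fold changes of C1qa, C1qb and C1qc were -0.05, -0.14 and -0.04. C1q is made by macrophages, and the 8 macrophage markers (Adgre1, Csf1r, Cd68, Lyz2, Mrc1, Cx3cr1, Cd14 and Ms4a7) summed to 88.0 to 118 CPM in sham and 71.9 to 113 CPM at 5d post-MI, with 6 of 7 tested markers lower in their estimate, a median log2 fold change of -0.26 and 0 called. Their part in the C1q values was not tested.

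C2, the protease of the classical C3 convertase and neighbour of Cfb, was at 19.8 CPM in sham, 18.9 at 5d and 23.3 at 28d post-MI. Between the times it had a log2 fold change of 0.31 (SE 0.13, 0.05 to 0.57), with an adjusted p of 0.420 in edgeR. C1ra at 16.7 CPM, C1s1 at 15.5 CPM and C1rb at 5.39 CPM in sham had log2 fold changes between -0.20 and 0.17 against sham. C1ra, C1rb and C1s1 have near copies, so that their counts are uncertain.

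Both other genes of the alternative arm were tested. Cfd, factor D or adipsin, had the highest mean in sham and the largest variation of the tested complement genes, at 82.9, 276 and 641 CPM (lowest, median, highest) in sham kidneys, 56.3, 304 and 425 CPM at 5d post-MI and 99.9, 131 and 298 CPM at 28d post-MI. All 28d kidneys lay within the sham range. Its biological coefficient of variation was 55.6%, and 99.5% of the tested genes had a lower value.

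Cfd had a log2 fold change of -0.99 at 28d post-MI (SE 0.46, -1.95 to -0.04), with an unadjusted p of 0.0417 and an adjusted p of 0.555 in edgeR. Its r with the adipocyte score was 0.93 (rho 0.92, permutation p = 1e-05, adjusted over 90 p = 0.00045), and 0.89 without the 2 kidneys farthest from the median score. With the score as a covariate in edgeR its log2 fold change at 5d post-MI was 0.48 (0.09 to 0.87, unadjusted p = 0.018, adjusted p = 0.725). Without the covariate it was -0.27 (-1.12 to 0.57) at that time, so that the sign changed. At 28d post-MI the covariate fit gave Cfd -0.07 (-0.50 to 0.37, adjusted p = 0.971). Between the times it gave -0.55 (-0.95 to -0.15, unadjusted p = 0.0096, adjusted p = 0.315), against -0.72 without the covariate, and Cfd was not called. Cfp, which encodes properdin, had 3.81, 3.51 and 4.97 CPM in the 3 groups and a log2 fold change of 0.52 (SE 0.25, 0.02 to 1.03, adjusted p = 0.534) between the times in edgeR.

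Of the terminal components, C8a at 18.6 CPM and C8g at 28.9 CPM in sham were tested, and their log2 fold changes lay between -0.03 and 0.10 in the 3 comparisons. Hc, which encodes C5, and C6, C7, C8b and C9 did not pass the filter.

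Among the other regulators tested were Clu (213 CPM in sham) and Cd59b (5.12 CPM). Clu, which encodes the chaperone clusterin, had log2 fold changes of 0.02 (-0.13 to 0.17) at 5d and -0.03 (-0.19 to 0.14) at 28d post-MI. Cd59b had 0.39 (SE 0.18, 0.03 to 0.76, adjusted p = 0.592 in edgeR) at 5d post-MI, with 4 of 8 kidneys above every sham kidney, and -0.43 (SE 0.20, -0.84 to -0.01, adjusted p = 0.534) between the times. Cfi, C4bp, Cd46, Cd55b and Vtn did not pass the filter.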

How the data were processed

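Kidney RNA of 24 mice is labelled (8 sham, 9 at 5d and 7 at 28d post-MI). The authors trimmed reads with Cutadapt, mapped them and counted them with HTSeq, and deposited the whole-number counts per gene without normalization. The study's methods name mm10 and the submitters' processing notes mm39 and Bowtie2; annotation and strand setting are not given in the sources used here. Of the 48 value columns 26 were not used: 24 named tpm, and 2 count columns that share a name, so that 1 kidney at 5d and 1 at 28d post-MI could not be assigned. Total counts per kidney were 2280618 to 3786275.

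Counts of 22 kidneys were filtered by filterByExpr (minimum count 10), scaled by TMM and fitted in edgeR 4.0.16 (R 4.3.3) by the robust quasi-likelihood model with 3 groups and no covariate, with two-sided F tests and Benjamini-Hochberg adjustment over 12780 genes. DESeq2 1.42.0 and limma 3.58.1 served as alternatives. The fit was tested on simulated counts with known changes. The labels do not say more on replicates than that they are separate samples. The study describes kidneys of separate mice, so p-values measure the spread between mice. No kidney pair of a group was as alike as 1 library counted again (71 pairs, chi-squared per degree of freedom 1.77 to 8.10). A value of 0 allows up to 3 counts, for counting error only.

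Correlations used log2 CPM (prior count 2) centred on group means, with 100000 permutations of kidneys within groups (numpy 2.4.6, scipy 1.17.1). Named genes are the 8 members, 41 other complement genes (values for those past the filter), the 3 tested genes most correlated with each member, and markers that moved with a member. The members and lists were chosen with earlier results of these data known. Leaving out the kidneys with adrenal markers and summing C4a and C4b, alone and together, were chosen after seeing the data. Transcripts and positions are from GENCODE M21 (GRCm38), which holds 51948 of the 56941 identifiers, and promoters from RefSeq. Values of some listed genes are not reported here.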

Additional observations from a re-analysis of the deposited data

Results flagged for a closer look

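Within groups, 63 sets of 1 complement gene in 1 group of kidneys were looked at for a kidney that stands apart by Dixon's 95% limit, and 4 were found, where chance, at about 1 in 20, gives about 3, so that their number is near that of chance. Sham kidney 2 was highest for C4a (11.3 CPM, 30 counts, next kidney 5.93 CPM) and for C4b (18.8 CPM, next 11.5 CPM), and the same kidney had 966 CPM of adrenal cortex markers. C1s1 reached 21.7 CPM in 28d post-MI kidney 1, where the next kidney was at 16.1 CPM. Cfd reached 298 CPM in 28d post-MI kidney 7, where the next was at 159 CPM, and this kidney had the highest adipocyte marker sum of its group (708 CPM).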

How the results depend on the processing

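In the 24 comparisons refitted by another scaling, filter, tool, sample set or covariate and the 66 that left out 1 kidney, 0 of the 8 members were called in each, and 0 of the 28 member pairs correlated under rank correlation, with the adipocyte score held constant, or without any 1 kidney. Of the other complement genes 1 was called in 1 of these, Itgax between the times with no filter on low counts (log2 fold change 1.32, edgeR's adjusted p = 0.0497), named after its values were seen. The log2 fold changes of members kept their sign in 185 of 192 refits and in 494 of 528 that left out 1 kidney, and none of the values that changed sign was called. With the adipocyte score these were C3 (0.16) and Serping1 (0.047) at 5d and Cd59a (0.028) at 28d post-MI. With a replicate block they were Cr1l at 5d (0.0054) and Cd55 at 28d post-MI (0.0052), and C3 between the times was -0.24, and without the kidneys with adrenal markers Serping1 at 5d post-MI (0.053) and Cd55 between the times (-0.0037), as well as C4a and C4b summed at 5d post-MI (0.016). Leaving out 1 kidney gave C4b values of -0.11 to 0.23 at 5d, -0.058 to 0.24 at 28d post-MI and -0.075 to 0.15 between the times, and Cd55 values of -0.15 to 0.044, -0.076 to 0.023 and -0.070 to 0.12. It gave Cd59a values of -0.051 to 0.046 at 28d post-MI, Cr1l values of -0.036 to 0.0094 at 5d and -0.0094 to 0.085 at 28d post-MI, and Serping1 values of -0.13 to 0.033 at 5d post-MI. Counts of called genes over all 12780, here in the order 5d against sham, 28d against sham and 28d against 5d, were 80, 94 and 160 with no filter, 35, 42 and 96 by DESeq2, 2, 31 and 26 with only the groups compared, and 2, 24 and 80 with the replicate block. They were 22 and 11 against sham by limma's voom, 2 and 1 against sham without the kidneys with adrenal markers, and 1 at 5d post-MI with the adipocyte score. Leaving out 1 kidney gave 1 to 38, 0 to 29 and 41 to 84, with 38 and 84 reached without 5d kidney 1, 29 without sham kidney 8, and 0 without 28d kidney 2 or 7. The cause of these shifts was not tested. The labelled numbers did not pair the kidneys: over 18 same-numbered pairs the correlation of deviations was -0.13 to 0.09. At this depth C4a rests on 4 to 30 counts per kidney. The printed intervals give the changes that these data still allow, and the smallest change that could be detected was not worked out.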
